A study of Mus musculus with 18 samples.

Results

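Kupffer cells are the macrophages that live in the sinusoids of the liver, and 10 of their marker genes were followed across the liver arrays: Clec4f, Cd5l, Mpeg1, Csf1r, Marco, Vsig4, C1qa, C1qb, Cd14 and Cd68. A gene was represented by the probe sets that the platform annotation assigns to its symbol alone, and the probe set with the highest mean over the arrays stood for the gene. This gave 15 probe sets for the 10 genes, among 12169 genes tested in all. Liver RNA came from 18 females of B6C3F1, a cross of inbred mouse strains common in cancer bioassays, in 6 groups of 3 animals, with 1 array per animal. All mice were 5 weeks old at the start, were exposed for 13 weeks and were 18 weeks old at sampling, and the series title states a search for expression markers of liver tumours in long-term bioassays. The feed control group (animals 27, 28 and 29) ate control feed 7 days per week. Animals 2, 4 and 5 received 1,5-naphthalenediamine at 2000 ppm in feed, and this chemical is labelled a positive liver carcinogen. Animals 12, 14 and 15 received N-(1-naphthyl)ethylenediamine as its dihydrochloride, also at 2000 ppm in feed, and animals 16, 18 and 20 received pentachloronitrobenzene, a fungicide, at 8187 ppm in feed. Both of these are labelled negative. The corn oil control group (animals 22, 24 and 25) was gavaged with vehicle 5 days per week. Animals 6, 8 and 10 received 2,3-benzofuran, labelled positive, at 240 mg/kg in 5 ml/kg of corn oil on the same schedule.

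Kupffer cells filter portal blood: scavenger and complement receptors on their surface bind bacteria, debris and immune complexes, which are then degraded in lysosomes. Their survival depends on signalling through CSF1R, the receptor for CSF1 and IL34, and the transcription factors PU.1 and MAF take part in macrophage gene control. In bulk liver RNA these genes are read as markers of a minority cell type within a tissue that is mostly hepatocytes. Fewer Kupffer cells, less RNA per cell and a changed signal from other cells cannot be told apart. Cd14 had a pattern unlike most of the other markers, as given below.

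RefSeq promoter sequence (build GRCm38.p6) was matched for 7 of the 10 genes, and 4 windows of 250 bases ending at the base before the transcript start are shown: those of Clec4f, Cd5l and C1qb because they hold the motif marked below, and that of Mpeg1, which holds none, because this gene differed most between the positives and the negatives. Each is written 5′ to 3′ on the strand of its gene, and capitals mark every match of TGCTGA, a MAF recognition core, on either strand. The windows are chr6:83656117-83656366 on the minus strand for Clec4f, chr3:87357631-87357880 on the plus strand for Cd5l, chr4:136886201-136886450 on the minus strand for C1qb and chr19:12460520-12460769 on the plus strand for Mpeg1.
Clec4f: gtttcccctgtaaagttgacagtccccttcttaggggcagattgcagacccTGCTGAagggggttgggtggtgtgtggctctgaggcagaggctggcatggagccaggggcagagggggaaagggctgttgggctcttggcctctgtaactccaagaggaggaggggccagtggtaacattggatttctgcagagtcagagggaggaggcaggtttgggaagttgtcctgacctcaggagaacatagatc
Cd5l: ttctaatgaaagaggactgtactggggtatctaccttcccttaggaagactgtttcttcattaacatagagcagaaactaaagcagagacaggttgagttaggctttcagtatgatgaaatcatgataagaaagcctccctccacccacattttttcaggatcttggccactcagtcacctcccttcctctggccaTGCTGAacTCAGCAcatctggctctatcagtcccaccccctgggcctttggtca
C1qb: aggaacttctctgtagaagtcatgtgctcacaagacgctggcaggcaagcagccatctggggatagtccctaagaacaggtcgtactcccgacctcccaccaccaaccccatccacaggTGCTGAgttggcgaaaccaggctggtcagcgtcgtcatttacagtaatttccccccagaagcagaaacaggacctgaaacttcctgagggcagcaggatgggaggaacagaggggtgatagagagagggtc
Mpeg1: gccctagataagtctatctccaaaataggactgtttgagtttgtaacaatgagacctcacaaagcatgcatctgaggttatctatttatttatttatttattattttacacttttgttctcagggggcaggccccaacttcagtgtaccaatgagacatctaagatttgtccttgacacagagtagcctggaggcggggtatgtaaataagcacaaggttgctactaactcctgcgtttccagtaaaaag

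The core TGCTGA was found in 3 of the 7 matched windows, against 16.1% of 32851 RefSeq promoter windows of the same length. It began 199 bases before the start in Clec4f and 131 bases before it in C1qb. Cd5l held a facing pair, with the TGCTGA copy 54 bases and its reverse complement 46 bases before the start. Mpeg1, Marco, Vsig4 and Cd68 held none. A PU.1 site written as GAGGAAGT, held by 2.44% of all windows, was searched on both strands and matched none of the 7, which says only that these letters are not in these windows. A match is a description of sequence, not a binding site. C1qb, C1qc and C1qa, the chains of C1q, lie next to each other in this order on chromosome 4.

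All 10 genes passed the filter on signal, which kept a probe set that exceeded the array median on 3 or more of the 18 arrays. Array medians lay between 4.25 and 4.35 on the log2 scale. Upper quartiles were higher in all treated arrays than in all control arrays, so the tested genes as a whole shifted up, by a median log2 difference of 0.175 with 1,5-naphthalenediamine, 0.109 with 2,3-benzofuran, 0.155 with N-(1-naphthyl)ethylenediamine and 0.148 with pentachloronitrobenzene. Changes are therefore given as log2 differences less that median, with the standard error of the model, while adjusted p-values are those of limma on the deposited scale, where the shift helps rises and hinders falls. Arrays of animals 4, 6, 10, 12 and 14 carried high 18S ribosomal RNA signal (7.93 to 11.6, against 5.94 to 6.97 on the others), and RNA integrity numbers ranged from 7.4 to 9.4, being 7.7 to 8.1 with N-(1-naphthyl)ethylenediamine. The part of both in the results was not tested except by leaving those arrays out and by a covariate, whose values stand beside the counts.

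Among the surface receptors, Clec4f encodes a C-type lectin made in mouse liver by Kupffer cells. Its log2 signals were 8.73, 8.96 and 8.58 in the feed controls, 8.66, 8.53 and 8.31 with 1,5-naphthalenediamine, 8.99, 8.99 and 8.78 with N-(1-naphthyl)ethylenediamine and 9.07, 8.83 and 9.33 with pentachloronitrobenzene. They were 9.13, 9.21 and 8.83 in the corn oil controls and 8.79, 8.63 and 8.36 with 2,3-benzofuran. The 3 benzofuran livers thus lay below every corn oil control, while the naphthalenediamine livers overlapped the feed controls.

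Vsig4 encodes CRIg, the complement receptor with which Kupffer cells capture complement-coated particles. Its signals were 8.93, 9.18 and 8.58 in the feed controls and 8.82, 8.02 and 8.08 with 1,5-naphthalenediamine, where animal 2 stood above the other 2 and inside the control range. They were 9.24, 9.21 and 8.79 in the corn oil controls and 8.72, 8.59 and 8.31 with 2,3-benzofuran, with no overlap. The negatives spanned 8.64 to 8.76 with N-(1-naphthyl)ethylenediamine and 8.69 to 9.21 with pentachloronitrobenzene. Marco, a class A scavenger receptor that binds bacteria, was dim, at 4.28 to 5.26 over all arrays and close to the array medians, and feed controls alone spanned 4.28 to 5.15.

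Csf1r, the receptor tyrosine kinase for CSF1, gave 10.06, 10.47 and 9.79 in the feed controls and 9.92, 9.55 and 9.63 with 1,5-naphthalenediamine. The corn oil controls gave 10.27, 10.43 and 10.18 and the benzofuran livers 9.75, 9.69 and 9.77. Signals in the negatives were 10.29, 10.34 and 10.00 with N-(1-naphthyl)ethylenediamine and 10.37, 10.05 and 10.30 with pentachloronitrobenzene. Every liver of both positive groups was below every liver of both negative groups.

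Among secreted and effector products, Mpeg1 encodes perforin-2, a pore-forming protein of macrophages. Its signals were 8.51, 8.87 and 8.26 in the feed controls, 8.25, 8.39 and 8.14 with 1,5-naphthalenediamine, 8.92, 8.93 and 8.67 with N-(1-naphthyl)ethylenediamine and 9.10, 9.12 and 9.43 with pentachloronitrobenzene. In the gavage arm they were 8.76, 8.96 and 8.92 in the corn oil controls and 8.18, 8.22 and 8.15 with 2,3-benzofuran. Pentachloronitrobenzene livers were above all feed controls and benzofuran livers below all corn oil controls.

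Cd5l, a secreted macrophage protein also called AIM, ranged over all arrays from 8.57 in naphthalenediamine animal 5 to 10.03 in pentachloronitrobenzene animal 20. Group means (SD, n = 3) were 9.48 ± 0.366 in feed controls, 9.01 ± 0.433 with 1,5-naphthalenediamine, 9.60 ± 0.241 with N-(1-naphthyl)ethylenediamine, 9.74 ± 0.266 with pentachloronitrobenzene, 9.76 ± 0.229 in corn oil controls and 9.31 ± 0.269 with 2,3-benzofuran. C1qa and C1qb encode chains of C1q, the recognition subunit of the classical complement pathway. C1qb gave 8.59, 8.92 and 7.88 in feed controls, 8.55, 7.91 and 7.53 with 1,5-naphthalenediamine, 9.002, 8.74 and 8.60 in corn oil controls and 8.34, 8.29 and 7.87 with 2,3-benzofuran. C1qa spanned 7.56 to 8.75 over all arrays, with the same lowest and highest animals as Cd5l. Cd68, a lysosomal glycoprotein of phagocytes, spanned 5.52 to 6.98, and its SD within groups of 3 was between 0.349 and 0.543, the widest of the 10 genes in 4 of the 6 groups.

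Cd14, the co-receptor that hands bacterial lipopolysaccharide to TLR4, had another pattern. It gave 4.86, 5.43 and 4.97 in feed controls, 5.83, 5.65 and 5.55 with 1,5-naphthalenediamine, 5.70, 5.66 and 5.55 with N-(1-naphthyl)ethylenediamine and 5.49, 5.21 and 5.16 with pentachloronitrobenzene. In the gavage arm it gave 5.16, 5.01 and 4.96 in corn oil controls and 6.26, 5.99 and 5.90 with 2,3-benzofuran. Both naphthalene amines and 2,3-benzofuran were above all of their controls, and pentachloronitrobenzene overlapped its controls.

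**Figure D1:**
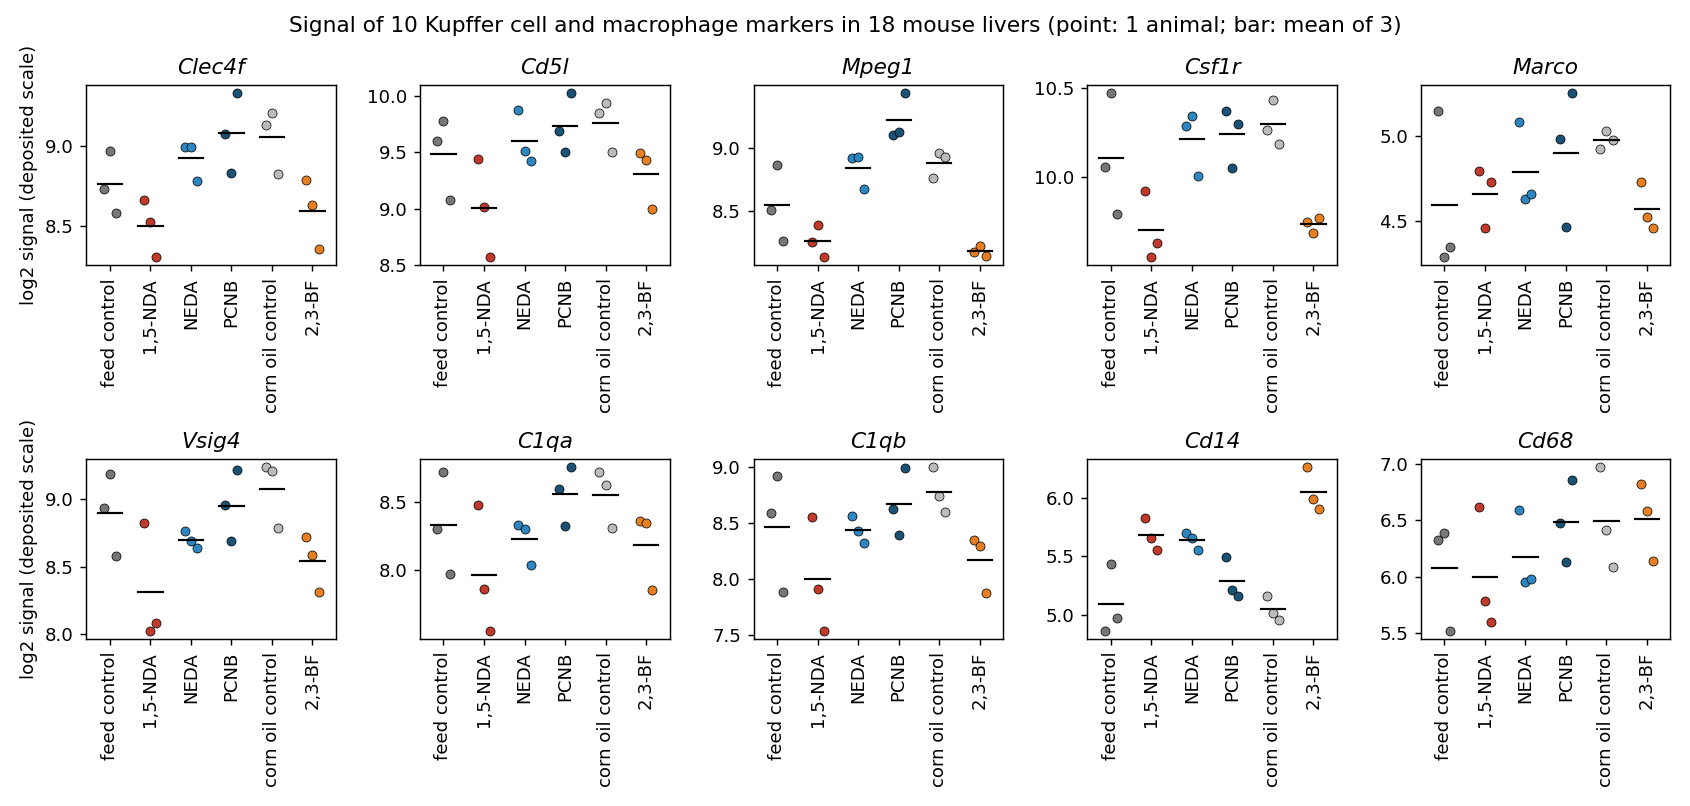
Log2 signal (deposited scale, vertical axis) of each of the 10 genes in 6 groups (1,5-NDA is 1,5-naphthalenediamine, NEDA N-(1-naphthyl)ethylenediamine, PCNB pentachloronitrobenzene, 2,3-BF 2,3-benzofuran), with a point per animal and a bar at the mean of 3; vertical axes differ between panels. Mpeg1 lies between 8.15 and 8.22 with 2,3-benzofuran and between 9.10 and 9.43 with pentachloronitrobenzene, and Cd14 is highest with 2,3-benzofuran.

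With 1,5-naphthalenediamine against feed control, 2 of the 10 genes fell and 1 rose. Vsig4 fell by 0.76 ± 0.198 (adjusted p = 0.0255, 1.70-fold) and Csf1r fell by 0.58 ± 0.145 (adjusted p = 0.0337, 1.50-fold), while Cd14 rose by 0.41 ± 0.142 (adjusted p = 0.00426). The other 7 did not pass, with values from -0.65 ± 0.216 for Cd5l to -0.11 ± 0.209 for Marco, and the median over the 10 was -0.50. Among all tested genes 8.41% were called lower and 31.5% higher. After quantile normalization, which removes the shift, 7 of the 10 were lower and 1 higher, against 12.1% and 12.2% of all genes; the 7 were Clec4f, Cd5l, Mpeg1, Csf1r, Vsig4, C1qa and C1qb. Csf1r no longer passed with feed control 28 or treated animal 4 or 5 left out (adjusted p up to 0.184), and neither did Vsig4 with feed control 27 or 28 or treated animal 4 or 5 left out (up to 0.122). Leaving out treated animal 2 or feed control 29, the livers with the highest and the lowest mean signal over the 9 genes other than Cd14 in their groups, raised the number called to 6 in each case. Cd14 kept its call without any 1 animal but not when arrays were centred (adjusted p = 0.0606), and it was the only gene called without the high 18S arrays.

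With 2,3-benzofuran against corn oil control, 4 of the 10 fell and 1 rose. Mpeg1 fell by 0.81 ± 0.133 (adjusted p = 0.000961, 1.75-fold), Csf1r by 0.67 ± 0.145 (adjusted p = 0.00747), Vsig4 by 0.65 ± 0.198 (adjusted p = 0.0451) and Clec4f by 0.57 ± 0.148 (adjusted p = 0.0245). Cd14 rose by 0.90 ± 0.142 (adjusted p = 8.06e-05, 1.86-fold). The 5 others ranged from -0.72 ± 0.247 for C1qb to -0.09 ± 0.297 for Cd68, and the median over the 10 was -0.57. Of all tested genes 7.58% were lower and 24.8% higher. After quantile normalization 6 of the 10 were lower and 1 higher, against 10.7% and 12.6%, with Cd5l and C1qb joining the 4. The calls of Mpeg1, Csf1r and Cd14 held without any 1 animal of the comparison. Clec4f lost its call without corn oil control 22 or 24 or treated animal 10 (adjusted p up to 0.119), and Vsig4 without corn oil control 22 or 24 or treated animal 8 or 10 (up to 0.162). Against the feed controls in place of corn oil, 2 were lower and 1 higher, with Mpeg1 at -0.53 (adjusted p = 0.0358), Csf1r at -0.54 (adjusted p = 0.0451) and Cd14 at 0.79 (adjusted p = 8.1e-05). Without the high 18S arrays, which leaves 1 benzofuran animal, only Cd14 was called, with Mpeg1 at -0.76 (adjusted p = 0.0678).

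Under the chemicals labelled negative 1 gene each passed, and both rose. With N-(1-naphthyl)ethylenediamine limma called none of the 10 lower, 2 had an unadjusted p under 0.05 in either direction, and Cd14 rose by 0.39 ± 0.142 (adjusted p = 0.0102), against 4.37% of all genes lower and 24.7% higher; the median over the 10 was -0.04. That call of Cd14 was lost on centring (adjusted p = 0.0899), with the RNA integrity number as a covariate (adjusted p = 0.0567) and without the high 18S arrays (adjusted p = 0.21). With pentachloronitrobenzene limma called none lower, 2 again had an unadjusted p under 0.05, and Mpeg1 rose by 0.52 ± 0.133 (adjusted p = 0.00525, 1.44-fold), against 3.87% of all genes lower and 14.6% higher, with a median over the 10 of 0.09. The rise of Mpeg1 held without any 1 animal and gave an adjusted p of 0.0567 in a fit on the 6 arrays of that comparison alone. In the same comparison Csf1r was at -0.02 ± 0.145, Vsig4 at -0.10 ± 0.198 and Clec4f at 0.17 ± 0.148. With N-(1-naphthyl)ethylenediamine Csf1r was at -0.05 ± 0.145, Vsig4 at -0.36 ± 0.198 and Clec4f at 0.007 ± 0.148, none of them called. These 3 feed comparisons share the feed controls.

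Between the controls, corn oil gavage against feed, limma called none of the 10, and 1 had an unadjusted p under 0.05, against 0% of all genes lower and 0.123% higher. In this comparison 9 of the 10 lay above the feed controls, with a median of 0.25, from 0.14 ± 0.198 for Vsig4 to 0.38 ± 0.297 for Cd68. Cd14 lay at -0.08 ± 0.142. Of the genes that fell with 2,3-benzofuran, Mpeg1 lay at 0.30 ± 0.133, Clec4f at 0.25 ± 0.148, Csf1r at 0.15 ± 0.145 and Vsig4 at 0.14 ± 0.198. None of these differences between the controls was called, and their part in the falls was not tested.

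**Figure D2:**
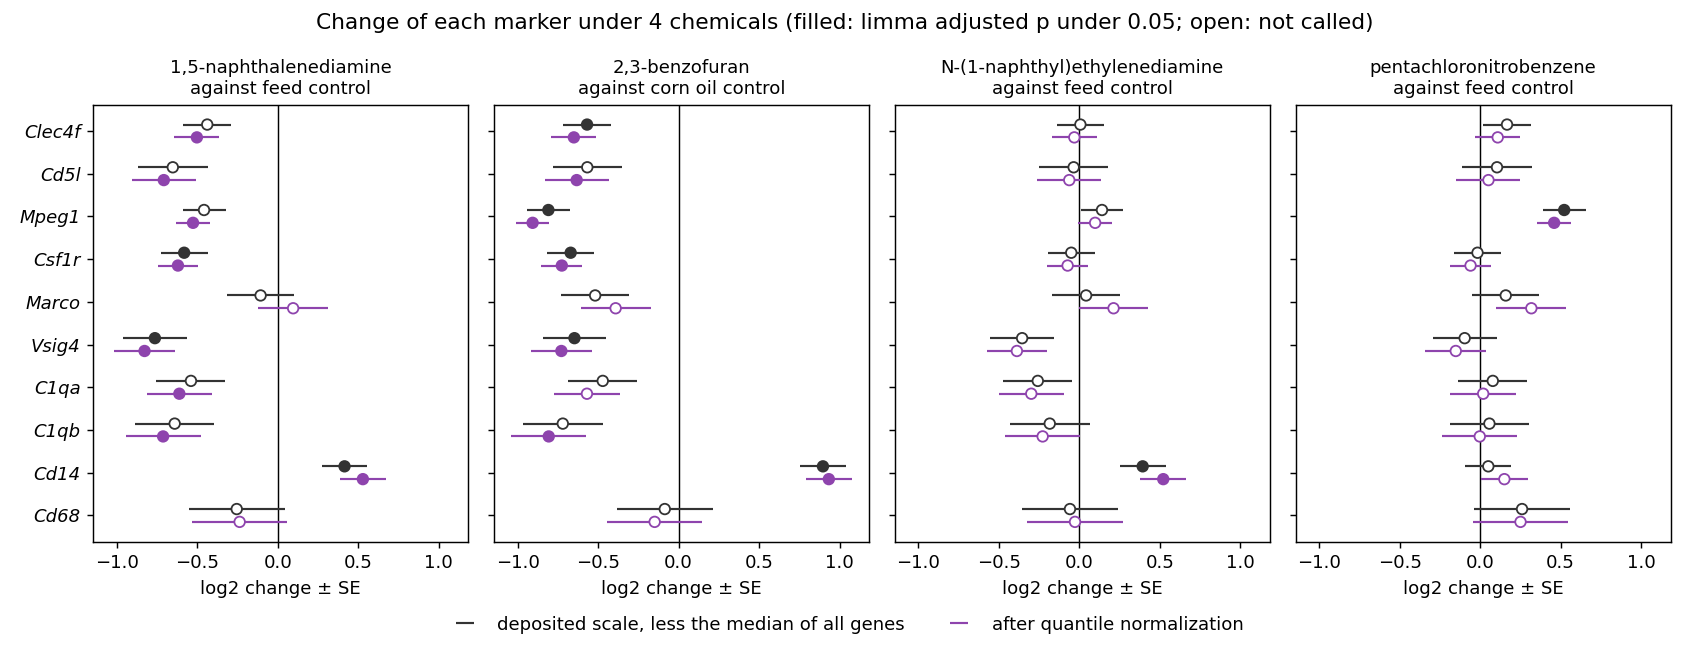
Log2 change ± SE of each gene (rows) under each chemical against its own control (3 animals per group), on the deposited scale less the median of all genes (grey) and after quantile normalization (purple); filled points are called by limma at an adjusted p under 0.05. Most genes lie left of 0 in the panels of 1,5-naphthalenediamine and 2,3-benzofuran and nearer 0 in the other panels, and Cd14 is filled and right of 0 in 3 of the 4.

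The naphthalene amines were given at the same dose, time and route and could be compared directly. 1,5-Naphthalenediamine carries an amino group on each ring of naphthalene, whereas N-(1-naphthyl)ethylenediamine carries 1 amino group on naphthalene, and its nitrogen bears an aminoethyl chain. Mpeg1 was lower with 1,5-naphthalenediamine by -0.58 ± 0.133 (adjusted p = 0.0158) and Csf1r by -0.51 ± 0.145 (adjusted p = 0.0463), 2 of the 10 genes, against 1.96% of all genes lower and 3.51% higher. After quantile normalization 2 were lower, against 3.4% and 3.76% of all genes. The other 8 did not pass: Clec4f differed by -0.42 (95% interval -0.73 to -0.11), Cd5l by -0.59 (-1.05 to -0.14), Vsig4 by -0.38 (-0.80 to 0.03), C1qb by -0.43 (-0.95 to 0.09), C1qa by -0.26 (-0.71 to 0.19), Cd68 by -0.17 (-0.80 to 0.45) and Marco by -0.13 (-0.56 to 0.31). Cd14, which was higher with each amine than in feed controls, differed between them by 0.04 (-0.25 to 0.34). Neither call held with the RNA integrity number as a covariate (adjusted p = 0.226 for Mpeg1 and 0.397 for Csf1r) or without the high 18S arrays (0.343 and 0.721). The call of Mpeg1 was also lost without naphthalenediamine animal 5 or ethylenediamine animal 12 or 14, and that of Csf1r without naphthalenediamine animal 4 or 5 or ethylenediamine animal 12 or 14.

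The effects of the positive chemicals, each against its own control, were set against each other by an interaction contrast. None of the 10 passed in limma, and 1 had an unadjusted p under 0.05, against 0.6% of all genes lower and 0.362% higher. That gene was Mpeg1, where the effect of 2,3-benzofuran less that of 1,5-naphthalenediamine was -0.39 (95% interval -0.79 to 0.00, unadjusted p = 0.0402, adjusted p = 0.376). For Cd14 the difference was 0.44 (0.02 to 0.86, unadjusted p = 0.0536, adjusted p = 0.427). The intervals are those of the relative change, and the p-values those of the deposited scale.

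When the mean effect of the positives was set against that of the negatives, 4 of the 10 genes were lower and 1 was higher, against 3.39% of all genes lower and 3.8% higher. Mpeg1 differed most, by -0.97 ± 0.115 (adjusted p = 3.01e-05, 1.97-fold). Csf1r differed by -0.60 ± 0.126 (adjusted p = 0.0058), Clec4f by -0.60 ± 0.128 (adjusted p = 0.00681) and Cd5l by -0.65 ± 0.187 (adjusted p = 0.0397), and Cd14 by 0.42 ± 0.123 (adjusted p = 0.0432). Vsig4, C1qa, C1qb, Marco and Cd68 did not pass, at -0.49, -0.43, -0.63, -0.42 and -0.28. After quantile normalization 4 were lower and 0 higher, against 4.26% and 4.89% of all genes, with Cd14 at an adjusted p of 0.0573. Mpeg1, Csf1r and Clec4f kept their calls without any 1 of the 18 animals. Cd5l lost its call without any 1 of 11 of them (feed control 29, naphthalenediamine 4 or 5, ethylenediamine 12 or 14, pentachloronitrobenzene 16 or 20, corn oil 22 or 24, benzofuran 8 or 10). Cd14 lost its call without any 1 of 12 (feed control 28, naphthalenediamine 2 or 4, ethylenediamine 12, 14 or 15, pentachloronitrobenzene 18 or 20, corn oil 24 or 25, benzofuran 6 or 8). With the RNA integrity number as a covariate, and likewise without the high 18S arrays, only Mpeg1 was called. Among the feed chemicals alone, a comparison added after the data had been seen, Mpeg1, Csf1r, Clec4f and Cd5l were lower with 1,5-naphthalenediamine than with the mean of the negatives (-0.78, -0.54, -0.52 and -0.68), and Cd14 did not pass (0.20, adjusted p = 0.382). The positive side of this contrast mixes feed with gavage, and with 2 chemicals in each class the class and the particular chemicals cannot be told apart.

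**Figure D3:**
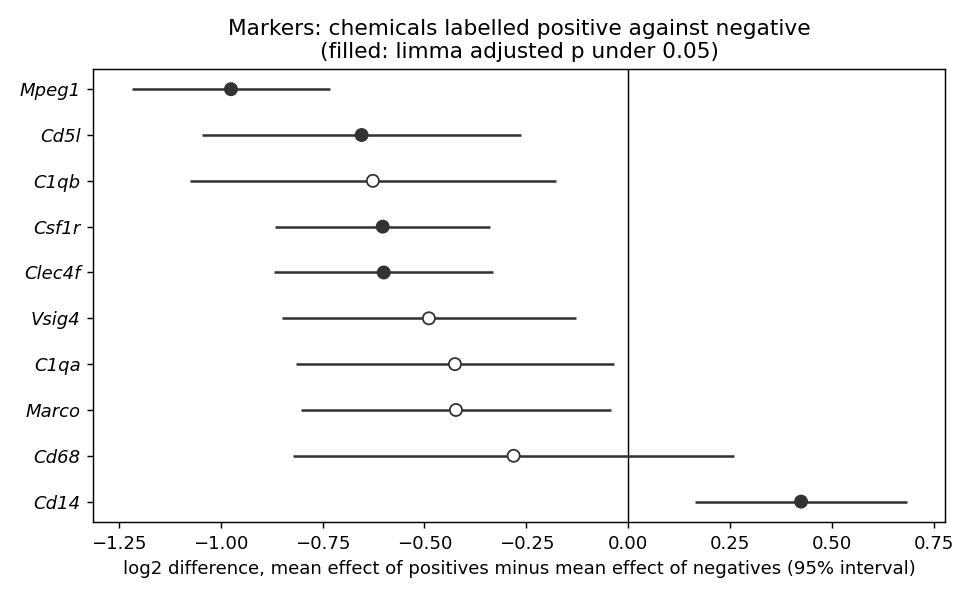
Difference in log2 change between the mean effect of the chemicals labelled positive and that of the chemicals labelled negative (horizontal axis, point with 95% interval, 18 arrays) for the 10 genes; filled points are called by limma at an adjusted p under 0.05. Mpeg1 lies lowest at -0.97 and Cd14 is the 1 gene right of 0, at 0.42.

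Other genes of the same cells were read from lists. Of 12 other resident Kupffer cell markers, Folr2, a folate receptor of tissue macrophages, fell with 1,5-naphthalenediamine (-0.77 ± 0.173, adjusted p = 0.0125) and with 2,3-benzofuran (-0.59 ± 0.173, adjusted p = 0.0418). No other list member passed there, and list medians were -0.27 and -0.44, where the median of all genes is 0 by construction. In the contrast of positives and negatives 3 of the 12 were lower, with Cd163, the haemoglobin scavenger receptor, at -0.70, Timd4, a phosphatidylserine receptor, at -0.65 and Folr2 at -0.51. Adgre1, which encodes the surface antigen most used to stain mouse macrophages, did not pass in any comparison and was at -0.29 ± 0.193 with 1,5-naphthalenediamine (adjusted p = 0.663) and -0.58 ± 0.193 with 2,3-benzofuran (adjusted p = 0.0696). In this list limma called none for either negative (0 and 2 at an unadjusted p under 0.05), with medians of 0.03 and -0.04. After quantile normalization 3, 5 and 4 of the 12 were lower with 1,5-naphthalenediamine, with 2,3-benzofuran and in the contrast of positives and negatives. Of all genes, 8.41%, 7.58% and 3.39% were lower in these comparisons on the deposited scale, and 12.1%, 10.7% and 4.26% after quantile normalization. With the negatives 4.37% and 3.87% of all genes were lower on the deposited scale.

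Genes of leukocytes in general were read in the same way. Of 13 pan-myeloid genes tested, 2 rose and 2 fell with 1,5-naphthalenediamine, with a median of -0.30. Of all genes, 31.5% rose and 8.41% fell there. Ctss, cathepsin S, fell by 0.81 ± 0.172 (adjusted p = 0.00702), while Lcp1, an actin-bundling protein, and Coro1a, coronin, rose by 0.42 and 0.48. With 2,3-benzofuran 1 rose and 3 fell, with a median of -0.42, Ptprc (CD45) at -0.70 ± 0.171 (adjusted p = 0.0161) and Fcer1g, the Fc receptor gamma chain, at -0.64. Of all genes, 24.8% rose and 7.58% fell with that chemical. In the contrast of positives and negatives 1 was higher and 5 were lower, against 3.8% and 3.39% of all genes. Quantile-normalized values gave 2 rises and 5 falls with 1,5-naphthalenediamine, 0 and 7 with 2,3-benzofuran, and 1 and 7 for positives against negatives. The shares of all genes that rose and fell were then 12.2% and 12.1%, 12.6% and 10.7%, and 4.89% and 4.26%. Coro1a also rose with both negatives, by 0.50 and 0.54. Lists of other cell types also lay below the median of all genes. The shares of all genes given for the pan-myeloid list hold for them too. With 1,5-naphthalenediamine and with 2,3-benzofuran the medians were -0.30 and -0.34 for 15 endothelial markers (1 up and 2 down, then 4 down), -0.28 and -0.32 for 12 stellate cell markers (none called and 2 at an unadjusted p under 0.05, then 3 down), -0.39 and -0.21 for 8 lymphocyte markers (2 down, then 1 down), -0.21 and -0.39 for 5 neutrophil markers (none called in either, 0 and 1 at an unadjusted p under 0.05) and -0.12 for 8 hepatocyte markers in both. With N-(1-naphthyl)ethylenediamine and pentachloronitrobenzene the endothelial medians were -0.08 and -0.19 (2 up, then none called). Those of the stellate list were -0.25 and -0.03 (2 down, then 2 up). The lymphocyte medians were -0.25 and -0.26 and the neutrophil medians -0.03 and -0.23, with none called. Of all genes, 24.7% and 14.6% rose and 4.37% and 3.87% fell with these negatives. Mean log2 signal over the endothelial list ranged from 6.89 to 7.26 in feed controls and 6.84 to 7.11 with 1,5-naphthalenediamine, and from 7.01 to 7.21 in corn oil controls and 6.80 to 7.06 with 2,3-benzofuran. For the lymphocyte list these ranges were 4.84 to 4.92, 4.67 to 4.70, 4.85 to 4.90 and 4.68 to 4.81, and Ms4a1 and Cd79a were among its members not tested. In the contrast of positives and negatives the endothelial median was -0.21 with none called in limma and 6 at an unadjusted p under 0.05. The stellate median was -0.20 with 3 of 12 lower there, the lymphocyte median -0.05 with 1 of 8 lower. The neutrophil median was -0.16 with none called and 0 at an unadjusted p under 0.05. The 10 markers had a median of -0.54, with 4 called lower and 1, Cd14, called higher. After quantile normalization 8 and 9 of the 15 endothelial markers were lower with 1,5-naphthalenediamine and 2,3-benzofuran, and 1 in the contrast of positives and negatives. Of all genes, 12.1%, 10.7% and 4.26% were lower in these comparisons. The part of these cell types in the results was not tested.

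Partners of the 10 genes in their pathways were followed as well. Among 6 tested genes around C1q, the C1 proteases and the C1 inhibitor are made largely by other cells, hepatocytes among them, and several fell with both positives. C1s1 fell by 0.87 ± 0.0845 with 1,5-naphthalenediamine (adjusted p = 2.66e-05) and by 0.56 ± 0.0845 with 2,3-benzofuran (adjusted p = 0.000833). C2 and C1ra also fell with 1,5-naphthalenediamine (-0.55 and -0.44), and C1ra, C2 and Serping1, the C1 inhibitor, with 2,3-benzofuran (-0.38, -0.45 and -0.46). That makes 3 and 4 of the 6, or 5 and 5 after quantile normalization, and limma called none for either negative, with none at an unadjusted p under 0.05 (1 each after quantile normalization). Of all genes, 8.41% and 7.58% were lower with the positives, or 12.1% and 10.7% after quantile normalization. With the negatives 4.37% and 3.87% of all genes were lower, or 6.5% and 4.32% after quantile normalization. C1qc, the remaining C1q chain and a member of the resident list too, was at -0.54 ± 0.205 (adjusted p = 0.16) and -0.55 ± 0.205 (adjusted p = 0.104) and did not pass. Between the naphthalene amines C1s1 differed by -0.62 ± 0.0845 (adjusted p = 0.000228), with C2 and C1ra lower as well. In the contrast of positives and negatives 4 of the 6 were lower, with a median of -0.46, against 3.39% of all genes. After quantile normalization 5 of the 6 were lower there, against 4.26% of all genes.

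The lipopolysaccharide pathway, where Cd14 acts, was read through 12 tested genes. Lbp, the plasma protein that brings lipopolysaccharide to CD14 and is made by hepatocytes, fell by 1.08 ± 0.134 with 2,3-benzofuran and by 0.61 ± 0.134 with 1,5-naphthalenediamine (adjusted p = 6.59e-05 and 0.0171), the opposite direction to Cd14. Ly96, which encodes MD-2, the partner of TLR4, rose by 0.42 ± 0.166 with 1,5-naphthalenediamine and by 0.34 ± 0.166 with 2,3-benzofuran (adjusted p = 0.00977 and 0.0473), the latter not after quantile normalization (adjusted p = 0.0898). Tlr4 itself fell with pentachloronitrobenzene by 0.62 ± 0.142 (adjusted p = 0.0319; 0.0908 after quantile normalization) and did not pass with the other 3 chemicals (-0.43, -0.31 and -0.47). In this list 3 rose and 4 fell with 1,5-naphthalenediamine (median -0.29), where 31.5% of all genes rose and 8.41% fell, and 3 rose and 2 fell with 2,3-benzofuran (median -0.25), where 24.8% rose and 7.58% fell. After quantile normalization 1 was higher and 3 lower, then 1 higher and 2 lower. The shares of all genes were then 12.2% and 12.1%, and 12.6% and 10.7%. By t statistic the leading calls were Ticam1, Irak1 and Ly96 with 1,5-naphthalenediamine and Lbp, Irak1 and Tirap with 2,3-benzofuran. With N-(1-naphthyl)ethylenediamine 1 gene of the list, Ticam1, rose, where 24.7% of all genes did.

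For the receptor Csf1r, the ligand gene Csf1 fell with 2,3-benzofuran by 0.46 ± 0.128 (adjusted p = 0.0427) and was at -0.41 with 1,5-naphthalenediamine, -0.35 with N-(1-naphthyl)ethylenediamine and -0.39 with pentachloronitrobenzene, none of which passed. Il34 was not tested. Of the 9 tested genes of this axis and of macrophage transcription factors, Cebpb rose with 1,5-naphthalenediamine by 0.42, a call that did not hold after quantile normalization (adjusted p = 0.226), and with N-(1-naphthyl)ethylenediamine by 0.92. Spi1, which encodes PU.1, rose with the latter by 0.13 (not after quantile normalization, adjusted p = 0.16), and Id3 fell with 2,3-benzofuran by 0.95. In this list 1, 0, 2 and 0 rose and 0, 2, 0 and 0 fell with 1,5-naphthalenediamine, 2,3-benzofuran, N-(1-naphthyl)ethylenediamine and pentachloronitrobenzene. Of all genes 31.5%, 24.8%, 24.7% and 14.6% rose there and 8.41%, 7.58%, 4.37% and 3.87% fell. After quantile normalization 0, 0, 1 and 0 of the list rose and 2, 3, 1 and 1 fell. The shares of all genes were then 12.2%, 12.6%, 7.94% and 3.01% higher and 12.1%, 10.7%, 6.5% and 4.32% lower. Of 11 lysosomal genes, to which Cd68 belongs by location, 4, 7, 6 and 5 rose and none fell on the deposited scale with 1,5-naphthalenediamine, 2,3-benzofuran, N-(1-naphthyl)ethylenediamine and pentachloronitrobenzene, where 31.5%, 24.8%, 24.7% and 14.6% of all genes rose. After quantile normalization 2, 5, 1 and 1 rose and 0, 1, 1 and 0 fell, against 12.2%, 12.6%, 7.94% and 3.01% of all genes higher and 12.1%, 10.7%, 6.5% and 4.32% lower. Hexa, a subunit of beta-hexosaminidase, led in all 4, at 1.04, 0.62, 0.73 and 0.43.

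**Figure D4:**
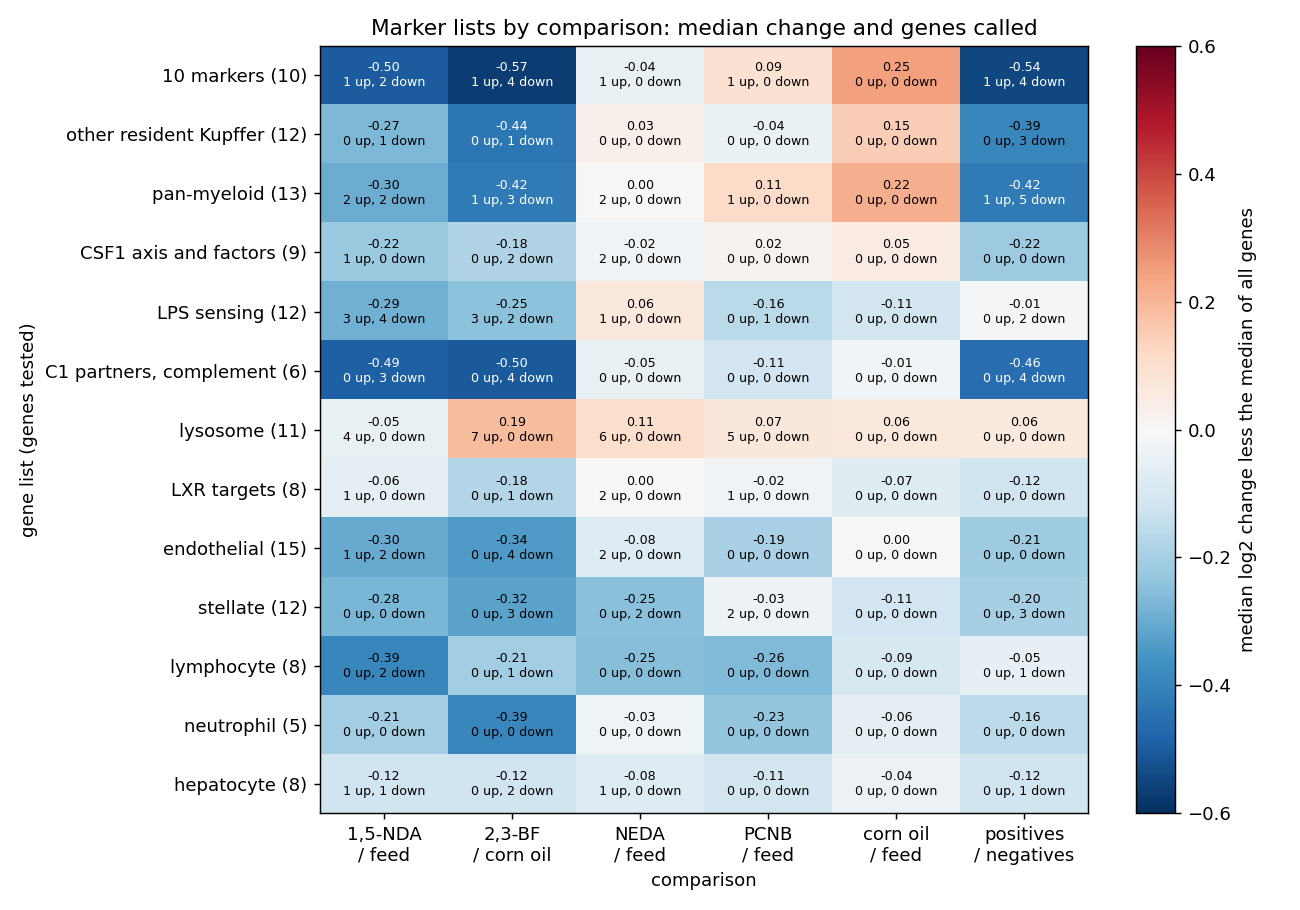
Median log2 change of the gene lists shown (rows, with the number of genes tested) in 6 comparisons (columns, abbreviated as in the plot of signals by group), less the median of all genes, on the deposited scale; each cell gives the median and how many genes limma called up or down at an adjusted p under 0.05. Of the lists shown, the 10 Kupffer cell genes and the complement list have the lowest medians with 2,3-benzofuran (-0.57 and -0.50); the recruited monocyte list, with 2 genes tested and a median of -0.59, is not plotted, nor are those of injured liver and bile duct.

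Within groups, the 9 genes other than Cd14 were mostly high or low in the same animals. Among the feed controls, animal 28 was highest in 8 of these 9 genes and animal 29 lowest in 8. Naphthalenediamine animal 2 was highest of its group in 8 and animal 5 lowest in 6. Pentachloronitrobenzene animal 20 was highest in 8 and animal 18 lowest in 8, and benzofuran animal 6 was highest in 7 and animal 10 lowest in 8. Cd14 was highest in the animal with the highest mean of the other 9 in 5 of the 6 groups, and lowest in the animal with the lowest mean in 4. The 9 genes are therefore not 9 independent readings of a liver. Over the 18 arrays, after each gene was centred on its own mean, the tested genes nearest to Clec4f were Ccl6, Itgb2 and Tmsb4x (root mean square difference 0.108, 0.114 and 0.115 log2 units). Of the other markers, Csf1r ranked 12, Cd5l 13, C1qa 19, Vsig4 38, C1qb 105, Mpeg1 149, Marco 987, Cd68 4754 and Cd14 11559 in nearness to Clec4f. Genes were not scaled to equal spread, so these ranks also depend on how much each gene varied. The difference of Cd68 from Clec4f was 0.326, where the SD of Clec4f over the arrays was 0.280. Nearest to Cd14 were Slc30a7, Erp29 and Cdipt (0.122, 0.146 and 0.153).

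Where a gene had several probe sets they gave changes of the same sign in both positive comparisons but not always the same call. For Csf1r with 1,5-naphthalenediamine the probe sets gave -0.56, -0.52 and -0.49 (adjusted p = 0.0386, 0.0991 and 0.0467 over 20712 probe sets), and with 2,3-benzofuran -0.66, -0.50 and -0.58 (adjusted p = 0.0091, 0.0898 and 0.0094). For C1qb, 1 probe set of 3, not the brightest, passed with 1,5-naphthalenediamine (-0.64, adjusted p = 0.0242) and with 2,3-benzofuran (-0.74, adjusted p = 0.00644); its name marks it as sharing probes with other sequences. The dimmer probe set of Marco passed with 2,3-benzofuran (-0.44, adjusted p = 0.0317), and the brighter one did not (-0.51, adjusted p = 0.158). The dimmer one read 4.19, 4.12 and 3.82 in the benzofuran livers, below the medians of those arrays (4.27, 4.25 and 4.25). In the corn oil controls it read 4.41, 4.46 and 4.26, close to the array medians (4.31, 4.33 and 4.33). In the contrast of positives and negatives the Csf1r probe sets gave -0.61, -0.43 and -0.60 (limma adjusted p = 0.00723, 0.0976 and 0.0029). Those of C1qb gave -0.63, -0.54 and -0.43 there (limma adjusted p = 0.0994, 0.024 and 0.101).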

How the data were processed

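Liver RNA of 18 mice was measured on Affymetrix whole-genome mouse arrays, 10 ug per sample per the labels. The values deposited are log2 signals, 1 per probe set and array; how the authors corrected background, normalized and summarised the scans is not given in the sources used here. Of 45101 probe sets, 34945 carry 1 gene in the platform annotation. After 64 controls were left out and a signal above the array median was required in at least 3 arrays, 24338 probe sets remained, 20712 with 1 gene, and the brightest per gene gave 12169 genes. limma 3.58.1 (R 4.3.3) took all 18 arrays in a model with a mean per group (empirical Bayes with trend, 12 residual degrees of freedom), and a call is a p under 0.05 after Benjamini-Hochberg adjustment over all genes, in each of 8 contrasts. The fit was tested on simulated data. The number of arrays limits precision.

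The members and lists were chosen with earlier results of these data known. Besides the members, at most the 3 called members with the largest t statistic of each list and comparison were named, with Adgre1, C1qc, Tlr4, Ly96, Csf1 and Il34 in any case, and the 3 genes nearest to Clec4f and to Cd14; C2 with 2,3-benzofuran, Lbp with 1,5-naphthalenediamine and Ccr2 between positives and negatives were added after their values were seen. Alternatives were quantile and cyclic loess normalization, centring, other filters and probe set rules, array weights, RNA integrity number as a covariate, other controls or samples, and leaving out each array. Figures used matplotlib 3.10.9 in Python 3.11.15.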

Additional observations from a re-analysis of the deposited data

Results flagged for a closer look

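The genes below were picked out because the effects of the chemicals labelled positive and of those labelled negative differed in a test of the difference itself, limma over all 18 arrays with adjustment over all genes. Mpeg1 differed by -0.97 (adjusted p = 3.01e-05), Csf1r by -0.60 (adjusted p = 0.0058), Clec4f by -0.60 (adjusted p = 0.00681) and Cd5l by -0.65 (adjusted p = 0.0397), each lower under the positives. Cd14 differed by 0.42 (adjusted p = 0.0432) and was higher under them. Cd5l lost its call without any 1 of 11 animals, and Cd14 without any 1 of 12 and after quantile normalization (adjusted p = 0.0573). With the RNA integrity number as a covariate only Mpeg1 was called.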

How the results depend on the processing

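No paired analysis was possible because the replicate numbers are animal numbers and no number occurs in more than 1 group. On the deposited scale limma called 4859, 3936, 3536 and 2249 of all 12169 genes with 1,5-naphthalenediamine, 2,3-benzofuran, N-(1-naphthyl)ethylenediamine and pentachloronitrobenzene. After quantile normalization it called 2961, 2842, 1757 and 892. Between the naphthalene amines it called 666 and 872, and for positives against negatives 876 and 1114. Calls over all genes under other settings are not given here. The count of members called, rises and falls merged, is given under each setting that moved it by more than 1.5 times. With 1,5-naphthalenediamine it was 3, and 8 after quantile normalization, 8 after cyclic loess, 7 on centring, 5 with array weights, 1 with only the groups of the contrast, 1 without the high 18S arrays and 8 with the controls pooled; it was 1 to 6 with 1 animal left out. With 2,3-benzofuran it was 5, and 8 after cyclic loess, 9 on centring, 3 with the RNA integrity number as a covariate, 8 with only the groups of the contrast, 1 without the high 18S arrays and 3 against feed controls; it was 3 to 5 with 1 animal left out. With N-(1-naphthyl)ethylenediamine it was 1, and 0 on centring, with the covariate and without the high 18S arrays, and 1 to 2 with 1 animal left out. With pentachloronitrobenzene it was 1, 0 with only the groups of the contrast, and 1 to 2 with 1 animal left out. Between the naphthalene amines it was 2, and 1 without the filter, without the trend or with only the groups of the contrast, 0 with the covariate and without the high 18S arrays, and 0 to 3 with 1 animal left out. For positives against negatives it was 5, 1 with the covariate and without the high 18S arrays, and 3 to 6 with 1 animal left out. Leaving out the high 18S arrays leaves 1 animal in the benzofuran and ethylenediamine groups, which is then assumed to vary like the other groups; the cause of the other shifts was not tested.

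The median over the 10 genes ranged with 1 animal left out from -0.17 to 0.071 with N-(1-naphthyl)ethylenediamine and from -0.019 to 0.23 with pentachloronitrobenzene, so neither has a settled sign; it was 0.052 without the filter for the former and -0.025 with array weights for the latter. For the effects of the positives set against each other it ranged from -0.19 to 0.21. Single genes whose value changed sign were not called in the comparison concerned. Marco with 1,5-naphthalenediamine became 0.092 after quantile normalization, 0.10 after cyclic loess, 0.039 without the filter and 0.012 without the high 18S arrays, and ranged from -0.30 to 0.16 with 1 animal left out. Marco with 2,3-benzofuran became 0.030 against feed controls after quantile normalization. Cd68 with 2,3-benzofuran became 0.016 without the filter, 0.077 with array weights, 0.093 with the controls pooled, 0.27 against feed controls and 0.26 against them after quantile normalization, and ranged from -0.29 to 0.17 with 1 animal left out. Vsig4 with pentachloronitrobenzene became 0.011 without the filter and ranged from -0.23 to 0.039. Cd14 ranged from -0.22 to 0.055 between the controls, and between the naphthalene amines it became -0.10 with the covariate and ranged from -0.037 to 0.094. The feed-only comparisons and the quantile-normalized comparison with feed controls were added after the data had been seen. Signal over background limits Marco, whose signals lie close to the array medians.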

Other observations

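Markers of recruited monocytes were mostly not tested: of 8 listed, Ccr2 and Plac8 passed the filter. Ccr2, the chemokine receptor of inflammatory monocytes, fell with each chemical, by 0.93 ± 0.169 with 1,5-naphthalenediamine (adjusted p = 0.00272), by 0.82 ± 0.169 with 2,3-benzofuran (adjusted p = 0.00439), by 0.77 ± 0.169 with N-(1-naphthyl)ethylenediamine (adjusted p = 0.0131) and by 0.77 ± 0.169 with pentachloronitrobenzene (adjusted p = 0.0217), and it differed by -0.11 between positives and negatives (adjusted p = 0.731). Its log2 signal was 5.44 ± 0.233 in feed controls and 5.33 ± 0.306 in corn oil controls (SD, n = 3), and the treated group means lay between 4.62 and 4.82. Plac8 rose with pentachloronitrobenzene by 0.53 (adjusted p = 0.0179; 0.0823 after quantile normalization) and was lower in positives than in negatives by -0.60 (adjusted p = 0.0217).

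Of 5 tested genes linked to macrophages of injured liver, Cd9, a tetraspanin, fell with both naphthalene amines, by 1.31 ± 0.192 and 1.07 ± 0.192 (adjusted p = 0.00032 and 0.00295), and Clec7a, the beta-glucan receptor, rose with pentachloronitrobenzene by 0.59 (adjusted p = 0.0369; 0.119 after quantile normalization). Of 8 targets of the LXR receptors, Abcg5, a sterol transporter, rose with the 3 feed chemicals by 0.33, 0.30 and 0.31. Abcg8 also rose with N-(1-naphthyl)ethylenediamine, and none of these rises held after quantile normalization. Srebf1 fell with 2,3-benzofuran by 0.82 (adjusted p = 0.0307). Of 3 tested bile duct markers, Epcam fell with 1,5-naphthalenediamine by 0.60 and Sox9 with N-(1-naphthyl)ethylenediamine by 0.69. For these lists and the monocyte list, the shares of all genes that rose were 31.5%, 24.8%, 24.7% and 14.6%. The chemicals are 1,5-naphthalenediamine, 2,3-benzofuran, N-(1-naphthyl)ethylenediamine and pentachloronitrobenzene in turn, and 8.41%, 7.58%, 4.37% and 3.87% fell. Single calls in such short lists are not results about the lists.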
